A study of Mus musculus with 9 samples.

Results

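The sarcomere, the contractile unit of striated muscle, is described here through 37 genes that code for its filaments, for the titin scaffold, for the Z-disc and its neighbours, and for proteins that assemble or fuel it. The members were listed by name for what their products are known to do, with earlier results of these data known. All 37 of 37 were measured, among 18193 genes read in all. Expression was measured on Affymetrix mouse arrays in cells of interlimb somites at embryonic day 9.5, with 3 arrays in each of 3 groups. PAX3-FKHR/GFP cells were GFP positive cells of Pax3PAX3-FKHR/GFP embryos, in which one Pax3 allele carries GFP and the other codes for PAX3-FKHR, a fusion of the PAX3 DNA binding domain with the activation domain of FKHR. GFP/+ cells were GFP positive cells of Pax3GFP/+ embryos, which keep one intact Pax3 allele, and GFP- cells were the GFP negative fraction. Tissue was pooled from many embryos by genotype before sorting, and the study calls the arrays of a group biological replicates, so p-values measure the spread between such preparations and not that between embryos.

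Both GFP positive groups carry GFP in place of one Pax3 allele, so neither is wild type, and the Pax3 lines were kept on a mixed C57 BL6/DBA2 background. The PAX3-FKHR-IRESnlacZ allele was a floxed conditional allele at the Pax3 locus, recombined by PGK-Cre, which is active in all cells and is carried through the mother in this cross. The gate selects cells by Pax3-GFP and not by any muscle protein, and it also takes Pax3 expressing neural crest cells. The labels of the GFP- samples do not state a genotype. The study's account of the comparison places them in Pax3GFP/+ embryos, while its description of the hybridizations puts Pax3+/+ there.

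In a sarcomere, thick filaments of myosin pull on thin filaments of actin, and calcium switches this on by binding the troponin complex on the thin filament. Titin spans from the Z-disc, where thin filaments are anchored by alpha-actinin, to the M-band, where thick filaments are cross-linked. Many of these proteins exist as fast, slow or cardiac isoforms, and the first muscle fibres of the embryo, in the myotome of the somite, are known to use developmental myosins together with slow and cardiac isoforms. The heart uses many of the same genes, and it beats by this stage.

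Of the 37 members, 30 had promoter windows in the RefSeq table of build GRCm38.p6, with 38 windows in all, each running from 250 bases before to 50 bases after a gene's start. Tnnt3, Tnni2, Neb, Myom2, Actn3, Tcap and Xirp1 had none there. Windows are shown for the genes with the largest differences on the arrays, Tnnc2 and Myh3, for Acta1, whose window matches most of the motifs searched, and for Myh8, a myosin gene on the same chromosome as Myh3 that was not called in any comparison. Capitals mark matches on either strand to the E-box CANNTG, bound by Myod1 and its relatives, to the MCAT element CATTCC, to TATAAA, to the MEF2 site, and to the CArG box, bound by Srf. The TATAAA match of Myh8 lies inside its MEF2 site match.
Tnnc2 (minus strand, chr2:164779685-164779984): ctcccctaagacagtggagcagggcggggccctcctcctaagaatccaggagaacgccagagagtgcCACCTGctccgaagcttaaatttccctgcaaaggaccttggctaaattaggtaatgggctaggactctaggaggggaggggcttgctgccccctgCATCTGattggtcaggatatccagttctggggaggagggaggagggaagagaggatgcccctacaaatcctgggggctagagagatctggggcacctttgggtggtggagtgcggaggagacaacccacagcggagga
Myh3 (plus strand, chr11:67078050-67078349): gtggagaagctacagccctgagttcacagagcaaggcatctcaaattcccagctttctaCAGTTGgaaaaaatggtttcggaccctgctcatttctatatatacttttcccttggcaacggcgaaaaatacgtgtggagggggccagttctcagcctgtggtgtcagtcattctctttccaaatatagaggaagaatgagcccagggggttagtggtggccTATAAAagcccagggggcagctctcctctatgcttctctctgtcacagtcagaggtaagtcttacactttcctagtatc
Acta1 (minus strand, chr8:123894726-123895025): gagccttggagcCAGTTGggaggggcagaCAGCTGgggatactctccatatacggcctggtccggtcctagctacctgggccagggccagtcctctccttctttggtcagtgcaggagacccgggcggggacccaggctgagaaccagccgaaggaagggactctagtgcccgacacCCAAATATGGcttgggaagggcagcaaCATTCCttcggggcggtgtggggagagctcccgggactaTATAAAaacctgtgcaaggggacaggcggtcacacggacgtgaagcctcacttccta
Myh8 (plus strand, chr11:67276874-67277173): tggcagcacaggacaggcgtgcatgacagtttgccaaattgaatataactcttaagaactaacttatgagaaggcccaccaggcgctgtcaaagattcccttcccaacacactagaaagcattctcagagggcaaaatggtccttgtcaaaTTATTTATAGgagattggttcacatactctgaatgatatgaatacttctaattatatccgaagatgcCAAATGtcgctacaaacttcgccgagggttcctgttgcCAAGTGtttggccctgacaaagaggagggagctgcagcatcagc

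An E-box was found in 84.2% of the 38 windows of members and in 72.3% of all 32851 windows. The E-box form CAGCTG, also counted as an E-box, was in 34.2% of the members' windows and 16.3% of all. The CArG box was in 15.8% of the members' windows against 1.63% of all, the MCAT element in 28.9% against 14.7%, TATAAA in 23.7% against 13.6% and the MEF2 site in 7.9% against 3.19%. Of 20 windows of members that fell with PAX3-FKHR, 8 held CAGCTG and 2 a CArG box, and of 18 windows of members that were not called, 5 and 4 did. These matches describe letters near the gene's start and were not tested against the expression values.

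Expression is given as log2 values from RMA, in which 1 unit is a doubling of signal, and a gene is read from its probe set with the highest mean over the 9 arrays. Values of different genes come from different probes and are not compared with each other. A gene was called in a comparison when limma gave an adjusted p under 0.05 and the log2 difference was at least 0.5, which is 1.41-fold. The medians of the 9 arrays lay between 4.64 and 4.68, and 10 of the 37 members had means below this level in all 3 groups. Members above it numbered 20 in PAX3-FKHR/GFP, 24 in GFP/+ and 23 in GFP- cells. As a check of the labels, Pax3 averaged 8.29 in PAX3-FKHR/GFP, 9.20 in GFP/+ and 4.50 in GFP- cells. Its log2 difference between the GFP positive groups was -0.91 (SE 0.084, adjusted p = 0.000215), and whether its probes also read the fusion transcript was not tested.

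Many sarcomere genes fell with PAX3-FKHR relative to GFP/+ cells, led by troponins, myosins and the myosin chaperone Unc45b. The question behind the comparison is what a more active form of Pax3 does in cells of the dermomyotome. Of the 37 members, 19 fell, 0 rose and 18 were not called, while over all genes 0.715% fell and 1.31% rose. The median log2 difference of the members was -0.51, against -0.0015 for all genes. At an unadjusted p under 0.05 the count of members that were higher was also 0, and the local pooled error test of the study, in an own implementation, gave 0 as well. All 19 members that fell had means above the array median in GFP/+ cells, and 13 of the 18 that were not called lay below it there. Members below that median give little room to see a fall, so the limits for a call partly set this split. In bulk samples such as these, fewer cells of a type and less RNA per cell cannot be told apart.

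**Figure D1:**
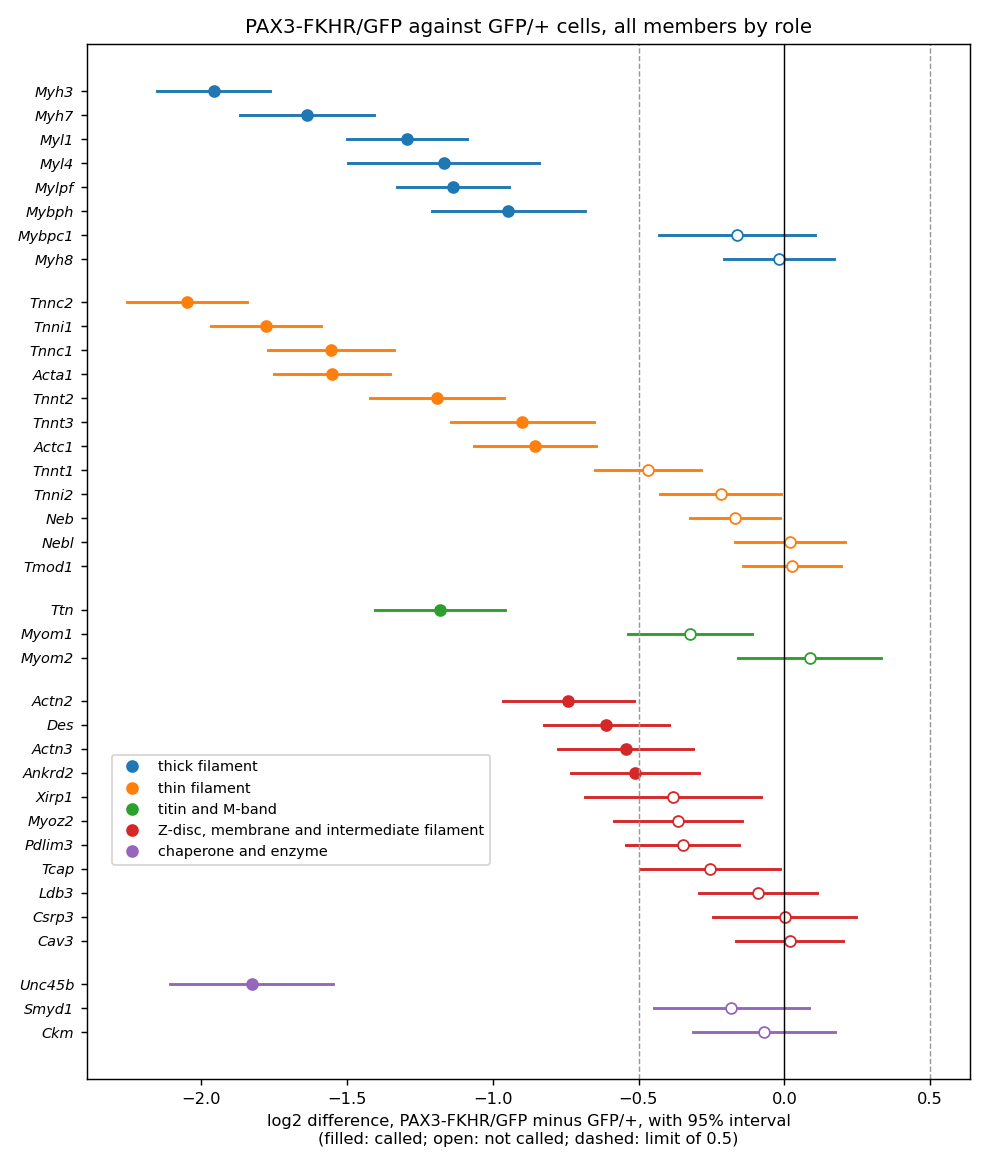
Log2 difference between PAX3-FKHR/GFP and GFP/+ cells for each of the 37 members, grouped by role, with 95% intervals from limma that are not adjusted for the number of genes (3 arrays per group). Filled points are called and open points are not, and the 19 filled points all lie to the left of the dashed line at -0.5.

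In the thick filament 6 of 8 members fell. Myh3, the embryonic myosin heavy chain, read 6.50, 6.72 and 6.72 on the PAX3-FKHR/GFP arrays, 8.67, 8.61 and 8.53 on the GFP/+ arrays and 3.13, 3.24 and 3.20 on the GFP- arrays. The 3 groups did not overlap, and PAX3-FKHR/GFP cells lay between the other two. Its log2 difference between PAX3-FKHR/GFP and GFP/+ cells was -1.96 (SE 0.088, adjusted p = 2.58e-06), so that 25.8% of the GFP/+ signal remained (95% interval 22.5% to 29.5%). Myh7, the slow and cardiac myosin heavy chain, read 4.56, 4.56 and 4.84 in PAX3-FKHR/GFP cells, 6.39, 6.24 and 6.24 in GFP/+ cells and 7.09, 7.10 and 7.24 in GFP- cells. Here the order differed from that of Myh3, since the GFP- cells were highest. The fall with PAX3-FKHR was -1.64 (SE 0.10, adjusted p = 1.74e-05), or 32.2% of the GFP/+ signal. A further probe set, shared by Myh7 and the cardiac Myh6, gave -0.63 (adjusted p = 0.03), and another shared by them, below the array median in every group, was not called (-0.05, adjusted p = 0.916).

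The myosin light chains fell with PAX3-FKHR as well. Myl1, an essential light chain of fast fibres, had 4.44, 4.44 and 4.39 in PAX3-FKHR/GFP and 5.62, 5.84 and 5.70 in GFP/+ cells, a log2 difference of -1.29 (SE 0.092, adjusted p = 3.34e-05). Mylpf, the regulatory light chain of fast fibres, had 6.36, 6.39 and 6.48 against 7.58, 7.42 and 7.63, a difference of -1.13 (SE 0.086, adjusted p = 5.84e-05). For both genes the ranges were well apart. Myl4, the light chain of embryonic and atrial muscle, was more variable, at 4.66, 4.79 and 5.31 against 6.11, 6.11 and 6.06, with a difference of -1.17 (SE 0.15, adjusted p = 0.00187). The highest PAX3-FKHR/GFP array still lay below every GFP/+ array. A second Myl4 probe set, dimmer in every group, was not called (-0.01, adjusted p = 0.988).

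Mybph, a myosin binding protein, averaged 5.50 in PAX3-FKHR/GFP and 6.45 in GFP/+ cells, a difference of -0.95 (SE 0.12, adjusted p = 0.00174). Its 3 PAX3-FKHR/GFP arrays held 1 identical value, which was the case for 353 of 45037 probe sets in that group, so their spread is not a measure of replicate error. Mybpc1, the slow myosin binding protein C, was not called (-0.16, 95% interval -0.43 to 0.10), with 4.98, 4.82 and 5.21 overlapping 5.20, 5.01 and 5.31. Myh8, the perinatal myosin heavy chain, read between 2.72 and 3.02 on all 9 arrays, below the array median, with means of 2.81 in PAX3-FKHR/GFP and 2.83 in GFP/+ cells and a difference of -0.02 (interval -0.21 to 0.17).

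Among the 12 thin filament genes 7 fell and none rose. They included genes of all 3 subunits of troponin. Tnnc2, troponin C of fast fibres, read 6.43, 6.68 and 6.58 in PAX3-FKHR/GFP, 8.51, 8.60 and 8.73 in GFP/+ and 3.64, 3.40 and 3.73 in GFP- cells. With a log2 difference of -2.05 (SE 0.093, adjusted p = 2.58e-06), leaving 24.2% of the GFP/+ signal (95% interval 21.0% to 27.9%), it had the lowest difference of all 18193 genes. Tnnc1, troponin C of slow and cardiac muscle, fell by 1.56 (SE 0.097, adjusted p = 1.64e-05), from 7.94, 7.83 and 8.16 to 6.45, 6.48 and 6.34. Tnni1, slow troponin I, read 6.05, 6.26 and 6.17 in PAX3-FKHR/GFP against a GFP/+ mean of 7.94 (SD 0.064, n = 3), a difference of -1.78 (SE 0.085, adjusted p = 3.72e-06). In all 3 of these genes every PAX3-FKHR/GFP array lay more than 1 log2 unit below every GFP/+ array.

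Of the genes for troponin T, which binds the complex to tropomyosin, Tnnt2 and Tnnt3 fell and Tnnt1 was short of the limit. The cardiac and embryonic Tnnt2 fell by 1.19 (SE 0.10, adjusted p = 0.000138), from 7.55, 7.88 and 7.91 to 6.53, 6.64 and 6.59, a second of its probe sets gave -1.29 (adjusted p = 0.000427), and the third, below the array median, was not called (-0.15, adjusted p = 0.634). The fast Tnnt3 fell by 0.90 (SE 0.11, adjusted p = 0.00155), from a mean of 5.21 to 4.31. For the slow Tnnt1 the arrays read 6.47, 6.66 and 6.56 in PAX3-FKHR/GFP against 7.01, 7.05 and 7.04 in GFP/+ cells. These did not overlap, and the difference of -0.47 (95% interval -0.65 to -0.29, adjusted p = 0.0148) passed the test but not the limit of 0.5, the one member for which this was so. Tnni2, fast troponin I, was not called (-0.22, interval -0.43 to -0.01), with means of 5.82 and 6.03. The probe set read for Tnni2, like that for Tnnt2, is of a type (_x_at) whose probes may also match other transcripts. The other Tnni2 probe sets, all below the array median in every group, were not called either (-0.23, adjusted p = 0.6, and 0.11, adjusted p = 0.838).

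Both sarcomeric actins fell. Acta1, skeletal alpha-actin, read 6.83, 6.92 and 7.03 in PAX3-FKHR/GFP, 8.34, 8.56 and 8.54 in GFP/+ and on average 5.86 (SD 0.12, n = 3) in GFP- cells, and its difference between the GFP positive groups was -1.55 (SE 0.090, adjusted p = 8.95e-06). Actc1, the cardiac alpha-actin that embryonic skeletal muscle also uses, fell by 0.86 (SE 0.095, adjusted p = 0.000733), from a mean of 10.39 (SD 0.074, n = 3) to 9.53 (SD 0.15, n = 3), the ranges not overlapping. It thus kept 55.3% of the GFP/+ signal, and Acta1 34.1%. The other 3 genes of the thin filament were not called. Tmod1, which caps the pointed end of actin, averaged 7.09 and 7.06 (difference 0.03, interval -0.14 to 0.19), well above the array median in both groups. Neb, the giant nebulin, averaged 2.90 and 3.06, and Nebl, its cardiac relative, 4.23 and 4.21, all below that median.

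**Figure D2:**
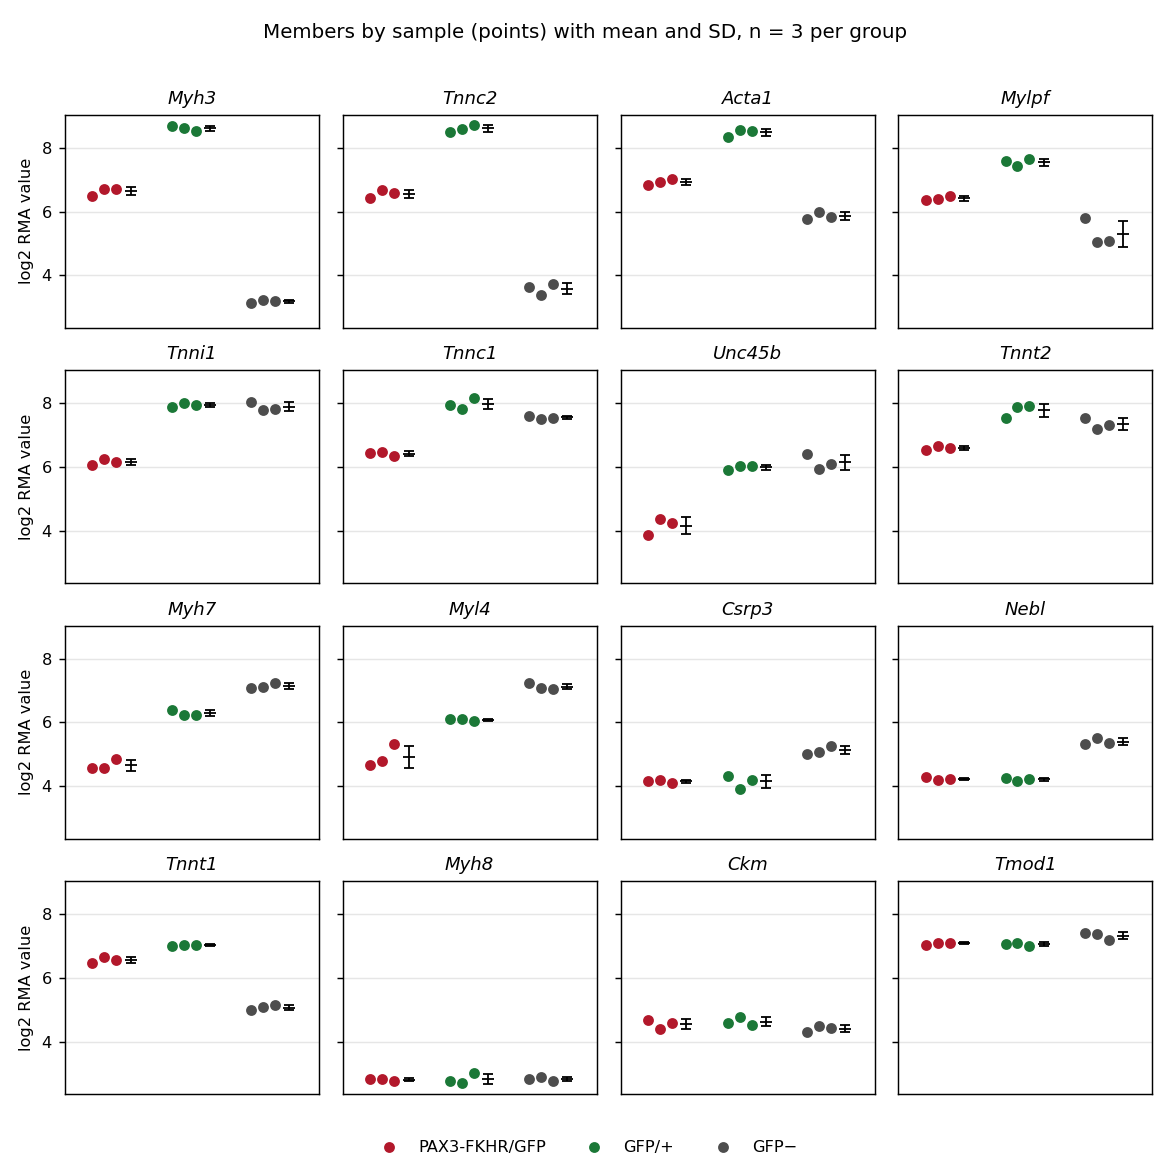
Log2 RMA values of 16 members on each array, with the mean and SD of each group beside the points (3 arrays per group, 1 shared vertical axis for layout, on which different genes are not to be compared). Myh3, Tnnc2, Acta1 and Mylpf are highest in GFP/+ cells, Tnni1 and Unc45b are near each other in GFP/+ and GFP- cells and lower in PAX3-FKHR/GFP cells, and Myh7, Myl4, Csrp3 and Nebl are highest in GFP- cells.

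Of the titin and M-band genes, Ttn fell. Its arrays read 5.23, 5.48 and 5.27 in PAX3-FKHR/GFP and 6.40, 6.62 and 6.49 in GFP/+ cells, a difference of -1.18 (SE 0.10, adjusted p = 0.00012). A second Ttn probe set fell by 0.80 (adjusted p = 0.00197) and the other 4, all with means below the array median, were not called, so that the mean over its probe sets gave -0.45, short of the limit. Myom1, an M-band cross-linker, was not called (-0.32, interval -0.54 to -0.11, adjusted p = 0.185), with means of 4.01 and 4.34. Myom2 likewise was not called on its brightest probe set, with means of 4.005 and 3.92 and a difference of 0.09 (interval -0.16 to 0.33). Its other 3 probe sets had differences below 0, of -0.11, -0.48 (adjusted p = 0.0443) and -0.64 (adjusted p = 0.152), and none was called.

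At the Z-disc, the membrane and the intermediate filaments 4 of 11 genes fell, by 0.51 to 0.74 on the log2 scale. Actn2, the alpha-actinin of all striated muscle, averaged 4.68 in PAX3-FKHR/GFP and 5.42 in GFP/+ cells (difference -0.74, SE 0.10, adjusted p = 0.00305). Des, desmin, the intermediate filament that ties Z-discs together, averaged 6.43 and 7.04 (-0.61, SE 0.096, adjusted p = 0.00798). A second Des probe set, below the array median in every group, was not called (0.00, adjusted p = 0.998), and with the mean of both the difference was -0.30 and the call was lost (adjusted p = 0.0568). Fast fibre alpha-actinin, Actn3, averaged 5.31 and 5.85 (-0.54, SE 0.10, adjusted p = 0.0259), and its PAX3-FKHR/GFP arrays were nearly identical, with an SD of 0.0031. Ankrd2, a stretch responsive protein of the sarcomere, averaged 5.27 and 5.78 (-0.51, SE 0.099, adjusted p = 0.0266).

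The last 3 of these calls each depended on single arrays. Without GFP/+ replicate 1 the adjusted p was 0.12 for Actn3, and it was also lost without any other array but GFP/+ replicate 3 (0.0889 to 0.163). Ankrd2 was lost without any array but GFP/+ replicate 2 (0.0637 to 0.166). Des was lost without GFP/+ replicate 2 (0.0806), without GFP/+ replicate 3 (0.0725) or without PAX3-FKHR/GFP replicate 2 (0.0792). Ankrd2 was also lost in the local pooled error test (adjusted p = 0.0673). Direction was kept in each case.

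The other 7 genes of this group were not called, and all had means below the array median in both GFP positive groups. Means in PAX3-FKHR/GFP and GFP/+ cells were 3.94 and 4.19 for Tcap, which caps titin at the Z-disc, 3.92 and 4.01 for Ldb3, and 4.29 and 4.64 for Pdlim3, both of which bind alpha-actinin. They were 4.16 and 4.15 for Csrp3, the muscle LIM protein, and 3.48 and 3.85 for Myoz2, a calcineurin binding protein. Xirp1, an actin binding repeat protein, had 4.15 and 4.53, and Cav3, the muscle caveolin of the cell membrane, 3.42 and 3.41. Of these, Xirp1, Myoz2 and Pdlim3 had intervals that reached past -0.5, and for Csrp3 the interval ran from -0.24 to 0.25.

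Of the assembly and energy genes, Unc45b, the chaperone that folds muscle myosin, had one of the largest falls of any member. Its arrays read 3.88, 4.37 and 4.25 in PAX3-FKHR/GFP, 5.90, 6.05 and 6.03 in GFP/+ and 6.42, 5.94 and 6.09 in GFP- cells. The difference between the GFP positive groups was -1.83 (SE 0.13, adjusted p = 2.76e-05), which took it from above to below the array median. Smyd1, a methyltransferase that works with this chaperone, averaged 5.62 and 5.80 and was not called (-0.18, interval -0.45 to 0.08), and of its dimmer probe sets 1 passed the test without reaching the limit (-0.36, adjusted p = 0.0303). Ckm, the creatine kinase of muscle, averaged 4.56 and 4.63 (-0.07, interval -0.31 to 0.17). Of the 18 members not called, 13 had 95% intervals wholly within 0.5 of no difference.

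Read by fibre type, falls with PAX3-FKHR took in 5 of 6 fast genes (median -1.02), 7 of 12 slow or cardiac genes (median -0.68) and 1 of 2 developmental myosins. The range was -2.05 to -0.22 for the fast and -1.78 to 0.02 for the slow or cardiac genes, so these ranges overlapped. Regulators of myogenesis did not all go the same way. Myf5, which starts the muscle programme, was higher in PAX3-FKHR/GFP cells (8.80 against 7.91, log2 difference 0.89, adjusted p = 0.000283). Myog and Myf6, which act at differentiation, fell by 1.23 (adjusted p = 0.000115) and by 1.18 (adjusted p = 3.31e-05), and Mef2c, their partner, by 0.61 (adjusted p = 0.00284). Myod1, with means of 4.73 and 4.89, was not called (-0.15, adjusted p = 0.749). In the list of regulators 1 of 8 rose and 3 fell.

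A wider list of 50 sarcomere and muscle enzyme genes that are no members, 46 of them measured, gave 7 falls and 0 rises in this comparison, with a median of -0.10. The largest were in Cryab, a small heat shock protein of the Z-disc (-1.43, adjusted p = 0.00294), Pgam2, the muscle phosphoglycerate mutase (-0.97, adjusted p = 0.000521), and Klhl41, which stabilises nebulin (-0.87, adjusted p = 0.00214). Myot, a Z-disc protein, and Lmod2, which lengthens thin filaments, followed at -0.67 and -0.65. Klhl41, Myot and Lmod2 had means below the array median in every group. Most of the list, 39 genes, was not called. Of 14 non-muscle relatives of the members, such as cytoplasmic actins and myosins, 12 were not called, Myl6 rose (0.71) and Ckb fell by 0.69.

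A different split appeared between GFP/+ and GFP- cells, the comparison that asks what marks Pax3 expressing cells of the somite. Of the 37 members 12 were higher in GFP/+ cells, 5 were lower and 20 were not called, while over all genes 1.92% were higher and 5.05% lower. The members' median was 0.33, against 0.0078 for all genes. Myh3 and Tnnc2 were higher by 5.41 (SE 0.075, adjusted p = 1.06e-10) and 5.02 (SE 0.10, adjusted p = 1.15e-09) on the log2 scale. Both lay below the array median in GFP- cells, at 3.19 and 3.59, and no detection calls were used here, so that these differences of RMA values are not exact folds of transcript. Acta1 was 6.14-fold higher (2.62, SE 0.087, adjusted p = 3.49e-08), and Mylpf 4.74-fold (2.25, SE 0.17, adjusted p = 1.78e-05). For Mylpf the GFP- arrays read 5.78, 5.04 and 5.08, the first of them apart from the other two, and all below the GFP/+ arrays.

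Smaller rises were seen in the slow Tnnt1, from 4.99, 5.10 and 5.14 in GFP- cells to 7.01, 7.05 and 7.04 (log2 1.96, adjusted p = 7.77e-08), and in Mybph (1.78, adjusted p = 1.16e-05) and Myl1 (1.73, adjusted p = 9.66e-07). Ttn (0.91), Ankrd2 (0.78), Tnnt3 (0.67), Actn3 (0.66) and Myoz2 (0.53) were the others that were higher. For Ttn 2 of its 6 probe sets were called, and the mean over all 6 gave 0.40, short of the limit. Actn3 and Myoz2 lost the call in 5 of the 6 fits without one array. For Actn3 the adjusted p was 0.0509 to 0.143 and the exception was GFP- replicate 2, and for Myoz2 it was 0.0542 to 0.119 and the exception was GFP- replicate 1. In the local pooled error test Myoz2 was short of the limit (0.41).

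The 5 members that were lower in GFP/+ than in GFP- cells are all known from heart muscle. So are members that were not called, such as Actc1, Tnnt2 and Tnnc1, and Tnnt1, Myoz2 and Ankrd2 of the slow or cardiac list were higher. Nebl differed by -1.19 (adjusted p = 1.08e-05), with 4.26, 4.15 and 4.23 in GFP/+ and 5.33, 5.53 and 5.35 in GFP- cells. Myl4, the atrial light chain, differed by -1.03 (adjusted p = 6.84e-06) on its brightest probe set, while the other was not called (0.13), and the mean of both gave -0.45, short of the limit. Csrp3 differed by -0.98 (adjusted p = 0.000385), Myh7 by -0.85 (adjusted p = 5.19e-05) and Pdlim3 by -0.67 (adjusted p = 0.000912). On the probe set read none of the 5 overlapped between the groups, which adds nothing to their calls. Members that were not called, such as Tmod1 and Myom1, did not overlap either, and the share over all genes was not counted. By fibre type, 5 of 6 fast genes were higher in GFP/+ cells and 0 lower (median 1.20), and of 12 slow or cardiac genes 3 were higher and 4 lower (median 0.40).

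**Figure D3:**
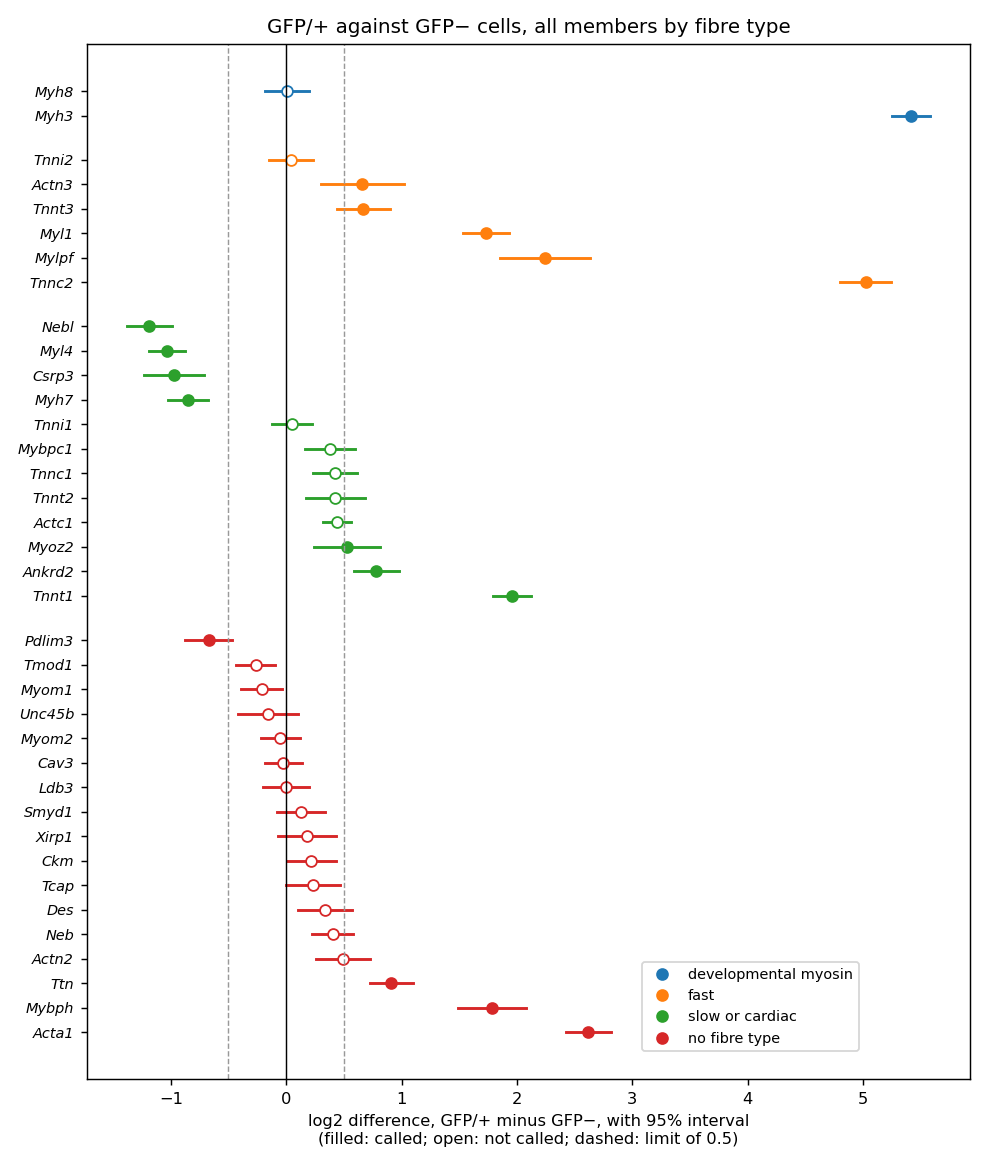
Log2 difference between GFP/+ and GFP- cells for each of the 37 members, grouped by fibre type, with 95% intervals from limma that are not adjusted for the number of genes (3 arrays per group). Filled points are called: 12 lie to the right of 0.5 and 5 to the left of -0.5, 4 of the latter among the slow or cardiac genes.

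Tnni1 and Unc45b were close to equal in GFP/+ and GFP- cells. Several other members had higher means in GFP/+ cells but were not called. Tnni1 averaged 7.94 and 7.89 (difference 0.05, interval -0.13 to 0.23) and Unc45b 5.99 and 6.15 (-0.16, interval -0.42 to 0.10). Tnnc1, at 7.98 and 7.56, Actc1, at 10.39 and 9.94, Actn2, at 5.42 and 4.93, Neb, at 3.06 and 2.66, and Mybpc1, at 5.17 and 4.79, passed the test with differences of 0.38 to 0.50 that were short of the limit. Tnnt2 reached an adjusted p of 0.0504 (0.43), and Des, at 7.04 and 6.71, one of 0.0918. Without GFP- replicate 1 both Tnnt2 (0.52, adjusted p = 0.0389) and Actn2 (0.59, adjusted p = 0.0102) were called, as was Tnnt2 without GFP/+ replicate 1 (0.54) and Actn2 without GFP/+ replicate 3 (0.54). In the local pooled error test, which reads the difference between medians, both were called as well (0.57, adjusted p = 9.24e-05, and 0.52, adjusted p = 0.00901).

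The remaining members were not called here. Tmod1 averaged 7.06 in GFP/+ and 7.33 in GFP- cells (-0.27, adjusted p = 0.0604), Myom1 4.34 and 4.55, and Tnni2 6.03 and 5.99. Smyd1 averaged 5.80 and 5.67, Ckm 4.63 and 4.41, Xirp1 4.53 and 4.35, and Tcap 4.19 and 3.96. Myh8, at 2.83 in both groups, Ldb3, at 4.01 in both, Cav3, at 3.41 and 3.43, and Myom2, at 3.92 and 3.97, were not called either. For Myom2 a dimmer probe set was higher in GFP/+ cells (0.92, adjusted p = 0.00388), opposite in sign to the brightest one (-0.05).

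Against the same GFP- arrays, PAX3-FKHR/GFP cells were higher in 6 members, lower in 10 and not called in 21, while over all genes 2.63% were higher and 5.2% lower. The members' median was -0.09, and that of all genes 0.0072. The members that stayed above GFP- cells were Myh3 (log2 3.46), Tnnc2 (2.97), Tnnt1 (1.49), Mylpf (1.11), Acta1 (1.07) and Mybph (0.84). Those below were Myh7 (-2.49), Myl4 (-2.20), Unc45b (-1.98), Tnni1 (-1.73), Nebl (-1.17), Tnnc1 (-1.13), Pdlim3 (-1.02), Csrp3 (-0.97), Tnnt2 (-0.77) and Myom1 (-0.54). Adjusted p-values of these 16 ran from 9.16e-10 for Myh3 to 0.00401 for Myom1, whose difference was just short of the limit without GFP- replicate 3 (-0.50) or PAX3-FKHR/GFP replicate 3 (-0.49).

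The 3 comparisons share arrays, so their calls are set side by side only to describe each gene. Myh3, Mylpf, Mybph, Acta1 and Tnnc2 ran from highest in GFP/+ through PAX3-FKHR/GFP to lowest in GFP- cells, with all 3 differences called. Myl1, Tnnt3, Ttn, Actn3 and Ankrd2 were higher in GFP/+ than in both other groups, and the other groups were not called apart. Between those groups Myl1 passed the test but not the limit (0.44 higher in PAX3-FKHR/GFP cells, adjusted p = 0.00689). Myh7 and Myl4 ran the other way, highest in GFP- and lowest in PAX3-FKHR/GFP cells. Tnnt2, Tnnc1, Tnni1 and Unc45b had their lowest level in PAX3-FKHR/GFP cells, with both differences called, and the other groups were not called apart. Actc1, Actn2 and Des fell with PAX3-FKHR and were called in no other comparison. Between PAX3-FKHR/GFP and GFP- cells Actc1 passed the test but not the limit (-0.41, adjusted p = 0.012). Nebl, Pdlim3 and Csrp3 were lower in both GFP positive groups than in GFP- cells. Tnnt1 was higher in both of them, and 12 members were called in none of the 3 comparisons: Myh8, Mybpc1, Tnni2, Tmod1, Neb, Myom2, Tcap, Ldb3, Xirp1, Cav3, Smyd1 and Ckm. These calls are those of the brightest probe set, and dimmer ones differed for Myom2, as given above, and for Smyd1, of which 1 of 6 was lower in PAX3-FKHR/GFP than in GFP- samples (-0.52, adjusted p = 0.00119).

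Markers of some other cells were higher in GFP- cells, and those of others in GFP positive cells. Of 11 heart muscle markers 7 were lower in GFP/+ than in GFP- cells and 7 were lower with PAX3-FKHR than in GFP- cells. Among these were Hand2 (means 4.87 in PAX3-FKHR/GFP, 5.01 in GFP/+ and 9.51 in GFP- cells), Myl7, the atrial light chain (4.38, 4.82 and 8.08), and Myh6, the cardiac myosin heavy chain (4.03, 4.18 and 7.64). Gata4, Tbx5, Tbx20 and Nkx2-5 were the other 4 that were lower. Nppa, Nppb, Myl2 and Tnni3 were called in neither of these comparisons. Of them Nppa, Nppb and Myl2 lay below the array median in GFP- cells. The summed linear signal of the list was 202 to 224 in PAX3-FKHR/GFP, 229 to 235 in GFP/+ and 1554 to 1603 in GFP- cells. Hand2 weighed most in the sum of the GFP- cells. Genes of this list need not be particular to heart muscle, and which cells gave their signal was not tested. The part of heart muscle in the levels of Myh7, Myl4, Nebl, Csrp3, Tnnt2, Tnnc1, Tnni1 and other members in GFP- cells was not tested either. Between the GFP positive groups 0 of the 11 were called, and Nppa, Nppb, Myh6, Myl2, Tnni3, Gata4 and Tbx20 lay below the array median in both.

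**Figure D4:**
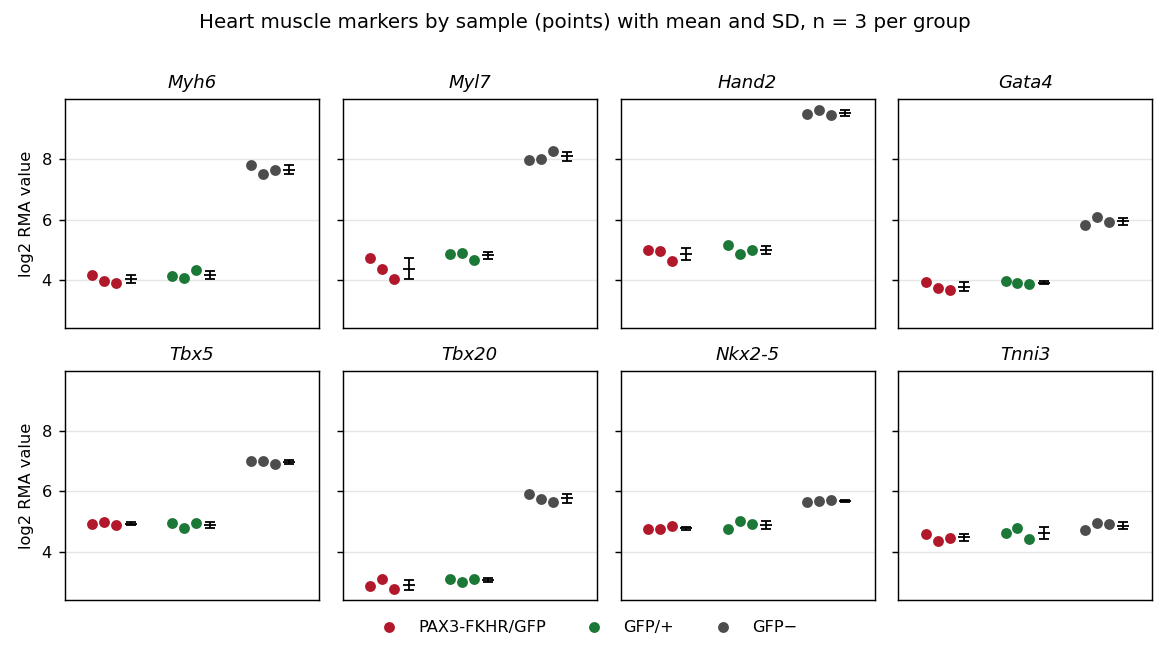
Log2 RMA values of 8 of the 11 heart muscle markers on each array, with the mean and SD of each group beside the points (3 arrays per group). Hand2, Myl7 and Myh6 lie at 7.5 or above on the GFP- arrays and near or below 5 on all GFP positive arrays, and the GFP positive groups overlap or adjoin.

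Other lists also separated the groups. Primitive erythroid markers, 4 of 5 of them lower in GFP/+ than in GFP- cells, summed to 1366 to 1430 in GFP/+ and 35877 to 36117 in GFP- cells, and to 1901 to 2220 in PAX3-FKHR/GFP cells, where Hbb-y exceeded its GFP/+ level (0.65, adjusted p = 0.0041). In smooth muscle, Acta2, an actin that early skeletal muscle also makes, fell with PAX3-FKHR (-1.20, adjusted p = 2.32e-05), and the other 5 were not called. Neural crest markers were brighter in both GFP positive groups than in GFP- cells in 4 of 5 and 5 of 5 genes, and Tfap2b rose with PAX3-FKHR (0.59, adjusted p = 0.00407). Of 8 measured dermomyotome markers 7 were higher in GFP/+ than in GFP- cells, and En1 lay below the array median in every group. With PAX3-FKHR, Lbx1, Tcf15 and Pax7 rose and Sim1 fell. Pax3 fell too, but it is the targeted gene and has no intact allele in PAX3-FKHR/GFP embryos. Endothelial markers were called in 0 of 6 between the GFP positive groups and were lower than in GFP- cells in 3 of 6 for GFP/+ cells. Of 6 sclerotome markers Pax1 and Foxc2 fell with PAX3-FKHR, and of 6 neural tube markers Pax6 and Neurog2 fell and Dbx1 rose (2.38). The part of these cells in the members' differences was not tested.

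Sarcomere genes outside the 37 also split between GFP/+ and GFP- cells. Of the 46 measured, 7 were higher in GFP/+ cells, led by Synpo2l, a Z-disc protein (1.45), Pgam2 (1.09), Klhl41 (1.03), the tropomyosin Tpm2 (0.89) and Myot (0.78). Klhl41 and Myot lay below the array median in both groups. The 5 that were lower were Myh6 (-3.46), Myl7 (-3.26), Mybpc3, the cardiac myosin binding protein C (-1.19), Myl3, a slow and ventricular light chain (-0.65), and Ankrd1, a cardiac ankyrin repeat protein (-0.60). Between PAX3-FKHR/GFP and GFP- cells 1 of the 46 was higher, Synpo2l (1.00), and 8 were lower.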

How the data were processed

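Arrays were Affymetrix Mouse Genome chips hybridized with RNA that went through a two-cycle amplification. The authors deposited log2 values after RMA (Robust Multichip Analysis), which corrects background, brings the arrays to one intensity distribution and summarizes the probes of a probe set; its version is not given in the sources used here. A shift of all transcripts in one group would not be seen after this step. The study removed probe sets called absent, which was not done here.

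The 37 members, their groups by role and fibre type and the other lists were chosen with earlier results of these data known. Of 45101 probe sets 64 controls were left out and 45037 kept for the fits, which limma 3.58.1 (R 4.3.3) made for the 6 arrays of each comparison with lmFit and an eBayes intensity trend. P-values were two-sided and adjusted by Benjamini-Hochberg over all probe sets. By the platform annotation 34945 probe sets had 1 gene symbol, 932 several and 9160 none. A gene was read from its single-symbol probe set with the highest mean over 9 arrays. Members had 63 such probe sets, 26 genes having 1 and 11 several. Of the 4 called members with several probe sets in the PAX3-FKHR comparison, 2 had another called the same way. Groups and replicates followed the labels. All 37 members are named with group means, values by array or differences, and values by array are given for those with the largest differences or that went against the majority. Other genes are named where called, up to 5 a direction in the wider sarcomere list. Arrays of a group correlated at 0.996 to 0.998. The precision is limited by 3 arrays a group. The fit was tested on simulated data. Alternatives were limma without the trend, all 9 arrays in a fit, median centring, other readings of a gene, filters, other limits, a replicate block, leaving out each array, and an own implementation of the study's local pooled error test. Promoter windows are those of RefSeq, build GRCm38.p6. No genome sequence and no protein sequences were used here.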

Additional observations from a re-analysis of the deposited data

How the results depend on the processing

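With a limit of 1 on the log2 difference in place of 0.5, 12 members fell with PAX3-FKHR, and 7 were higher and 2 lower in GFP/+ than in GFP- cells. Among the 25 members whose probe sets were above the median level, 3 were lower in GFP/+ than in GFP- cells. When each array was left out in turn, 16 to 17 members fell and 0 rose with PAX3-FKHR, 10 to 13 were higher and 5 lower in GFP/+ than in GFP- cells, and relative to GFP- cells 6 were higher and 9 to 10 lower with PAX3-FKHR. The other counts stayed within 1.5 times the reported ones under the other alternatives. Of single genes, Myom2 turned from -0.05 to 0.92 in GFP/+ against GFP- cells when its probe set with the smallest adjusted p was read, and 52 values called in neither setting changed sign. Calls were lost in 33 and gained in 7 values of single members, most of them in Actn3, Ankrd2, Des and Myoz2; the cause was not tested. Replicate numbers did not pair the arrays, since deviations of same-numbered arrays correlated at -0.0957 to 0.1047 over probe sets. With the replicate number as a block, 18 members fell with PAX3-FKHR, Ankrd2 having an adjusted p of 0.0574, and the counts of the other comparisons were those reported. Members below the array median, 10 in all groups, give little room to see a fall.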
